A study of Homo sapiens with 14 samples.

Results

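The Notch and HES genes are 10 human genes of the Notch pathway: the ligands JAG1 and JAG2, the receptors NOTCH1, NOTCH2 and NOTCH3, and the transcriptional repressors HES1, HES4, HES6, HEY1 and HEY2. They were taken by name, as every probe that the platform annotation gives to one of them alone, which made 15 of 30113 probes with 1 symbol and 10 of 20046 named genes. These genes were chosen with earlier results of the same arrays in view, so their differences are given as a description with no test. Notch signalling passes from cell to cell. A jagged or delta ligand on one cell binds a Notch receptor on its neighbour, the receptor is cut by ADAM10 and then by gamma-secretase, and its freed intracellular domain joins the DNA-binding protein RBPJ and a Mastermind coactivator. HES and HEY genes are the classic targets, and their proteins repress transcription together with Groucho/TLE corepressors. HES6 differs from the others: in mouse neurogenesis it counteracts HES1 and is not induced by Notch. In the prostate, Notch signalling is known for roles in ductal development and in the balance of basal and luminal cells.

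The study asked what FoxA1, a forkhead factor that opens chromatin for other regulators, controls in prostate cancer lines. RNA was hybridized to 14 Illumina bead arrays, and each array is 1 sample. LNCaP, an androgen-sensitive line, carried an shRNA against FoxA1 (shFoxA1, 4 arrays) or a control shRNA (shCtrl, 4 arrays). In each of these groups, 2 arrays are numbered and have no medium in the title, 1 is titled R1881, a synthetic androgen, and 1 hormone-deprived. The numbered arrays are paired below by the number in their titles alone. Pairing them the other way would give other differences for these pairs. The growth protocol of all 8 is worded alike and names 3 days without steroids, by charcoal stripping, and then 1 nM R1881 for 24 hours, also for the arrays titled hormone-deprived. The descriptions count the R1881 arrays as a further replicate of the numbered ones. The other groups had 1 array each. They were LNCaP with siRNA against FoxA1 or control siRNA, 22RV1 with a stable shRNA against FoxA1 or a control shRNA, and the metastatic line PC-3M as a stable line labelled as overexpressing FoxA1 or as its control line, both kept in RPMI with serum. For the siRNA and 22RV1 arrays the protocol names the same R1881 schedule for some experiments, without saying for which. Nothing says that arrays of a group came from separate cultures, so p-values cover the spread between arrays alone, which may be technical.

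Levels are log2 intensities after background correction and quantile normalization within each of 3 deposited tables (LNCaP shRNA; LNCaP siRNA with 22RV1; PC-3M), and a difference of 1 is 2-fold. The tables were normalized separately, so levels of different tables are only roughly comparable. By array, deposited intensity averaged 157 to 285 for LNCaP shRNA, 436 to 447 for LNCaP siRNA, 235 to 325 for 22RV1 and 208 to 222 for PC-3M. Within LNCaP shRNA, 16229 to 17062 probes were detected on the numbered arrays and 18740 to 20174 on the R1881 and hormone-deprived arrays. The authors' deposited matrix also normalized these arrays in different sets. Between them, medium label and array set cannot be told apart. FOXA1 itself was at 10.76 and 10.36 on the numbered shFoxA1 arrays, 10.92 with R1881 and 11.37 hormone-deprived, against 11.87, 11.64, 11.91 and 12.11 on the matching shCtrl arrays. It fell by 1.02 (SE 0.15, 4 arrays against 4, limma adjusted p = 0.0121). The pair differences were -0.81 with siRNA and -1.11 with shRNA in 22RV1. Without the R1881 pair this adjusted p was 0.0675, on the numbered arrays alone 0.0547, without the medium term 0.0669 and without the detection filter 0.0539. In PC-3M, FOXA1 was at 8.89 on the array labelled FoxA1 and at 10.40 on its control, against the label. That pair is therefore named by its labels, with no direction of FoxA1 implied. The array shFoxA1 replicate 1 stood apart in several genes. Results that rest on it are given with it and without replicate 1 of both groups. In cultures measured in bulk, fewer cells of a type and less RNA per cell cannot be told apart.

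In outline, HES4 was lower with FoxA1 knockdown in each of the 6 knockdown pairs, as 12.4% of genes were. HEY1 was higher in each of them, as 9.96% of genes were, by 0.03 in the R1881 pair and at least 3.02-fold in the replicate 1 pair, where its control was undetected. HES6 carried the widest androgen difference of the 10 genes. The ligands and receptors differed little between shFoxA1 and shCtrl on average. The PC-3M array labelled FoxA1 held more signal than its control for each of the 9 detected genes, as for 51% of all genes. That rests on 1 array against 1. Of these 10 genes, 9 were detected on enough arrays to enter the fit over the 8 LNCaP shRNA arrays, and 1, HES4, passed its threshold of an adjusted p below 0.05. Over all genes 7.52% passed (894 of 11892, 474 higher and 420 lower). Since the 10 genes were chosen on these arrays, nothing is read from the count or from HES4 passing. With median scaling the split was 250 higher and 1243 lower, and the median of all genes moved to -0.15. HEY2 was undetected on all 8 arrays and is accounted for below.

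**Figure D1:**
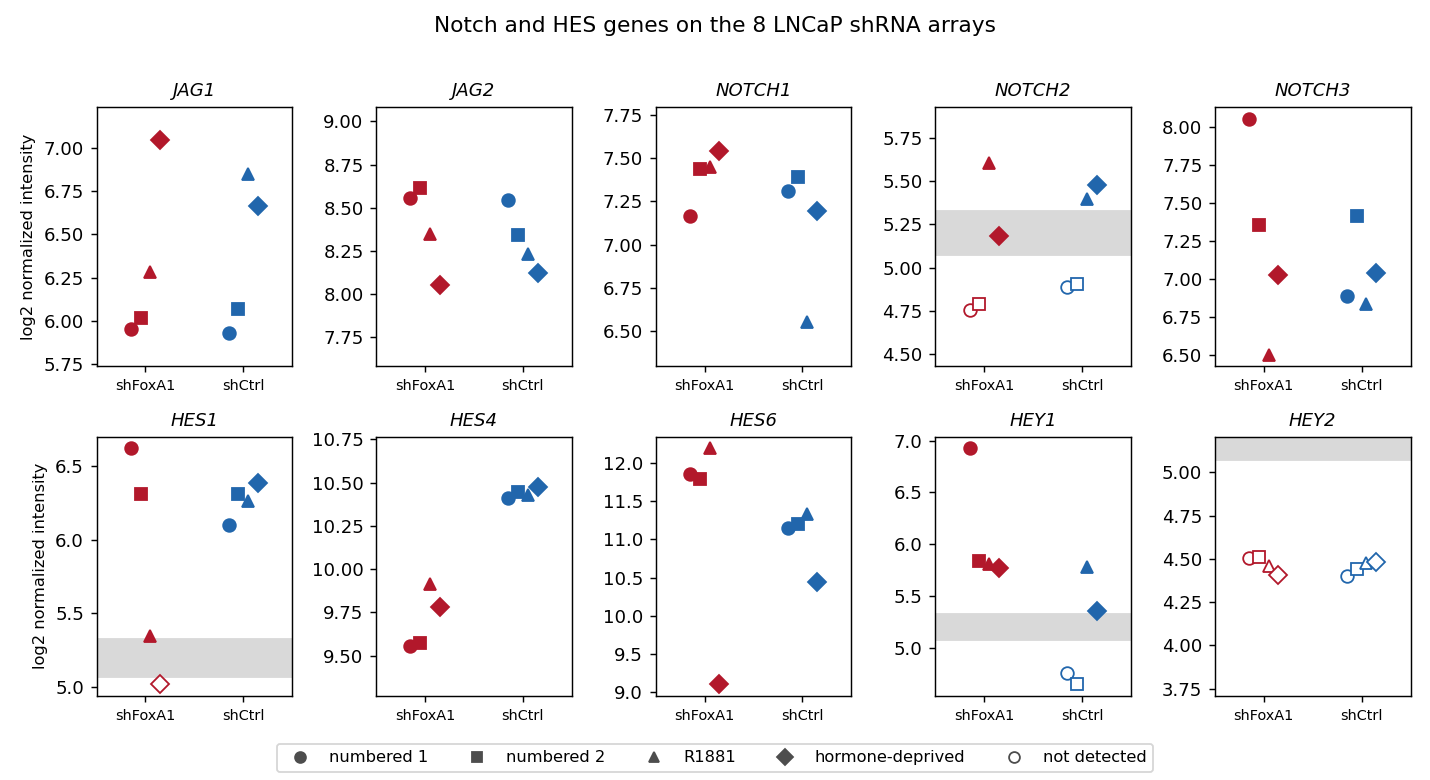
Log2 normalized intensity of the 10 genes on the 8 LNCaP shRNA arrays, with shFoxA1 in red on the left and shCtrl in blue on the right of each panel; symbols mark the pair, open symbols arrays without detection, and the grey band the range of detection limits. The y axis differs between panels. HES4 is the panel in which the groups do not overlap (9.56 to 9.91 in shFoxA1, 10.41 to 10.48 in shCtrl), and HES6 has 1 low shFoxA1 array at 9.11.

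JAG1, a transmembrane ligand of Notch receptors, was at 5.95 and 6.02 on the numbered shFoxA1 arrays, 6.28 with R1881 and 7.04 hormone-deprived, against 5.93, 6.07, 6.85 and 6.66 in shCtrl. Both numbered pairs were nearly level, and the groups overlapped fully. The mean difference was -0.05 (SE 0.16). The R1881 and hormone-deprived pairs stood on opposite sides of 0, at -0.56 and 0.38. Under median scaling the R1881 pair differed by -1.11, beside an all-gene median of -0.50. In the siRNA pair JAG1 was at 6.77 with FoxA1 siRNA and 6.60 with control siRNA. It was undetected on both 22RV1 arrays.

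JAG2, the second jagged ligand, was at 8.56, 8.61, 8.35 and 8.05 on the shFoxA1 arrays in the same order, against 8.54, 8.35, 8.23 and 8.12 in shCtrl. Its difference was 0.08 (SE 0.12), and the groups overlapped. A second probe gave -0.04 (SE 0.13), and the remaining probe was undetected on all 14 arrays. The siRNA pair had JAG2 at 8.86 with FoxA1 siRNA and 9.02 with control siRNA, and the 22RV1 pair at 8.24 with FoxA1 shRNA and 7.94 with control shRNA.

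NOTCH1, a receptor best known from lymphoid and epithelial development, was at 7.16, 7.44, 7.45 and 7.54 in shFoxA1, against 7.31, 7.39, 6.55 and 7.19 in shCtrl. The lowest of the 8 values was the shCtrl array with R1881, and the R1881 pair differed by 0.90, against -0.15 and 0.04 in the numbered pairs. The mean difference was 0.29 (SE 0.18), and the groups overlapped. NOTCH1 was at 7.41 with FoxA1 siRNA and 7.25 with control siRNA, and at 7.99 and 8.01 in the 22RV1 pair.

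NOTCH2, a receptor expressed in many epithelia, lay close to the detection limit. The brightest of its 3 probes was at 4.75 and 4.79 on the numbered shFoxA1 arrays, both undetected, and at 5.60 with R1881 and 5.18 hormone-deprived. In shCtrl it was at 4.89 and 4.91, also undetected, 5.40 and 5.48. The groups overlapped and the difference was -0.09 (SE 0.13). With FoxA1 siRNA NOTCH2 was at 5.48 and with control siRNA at 5.35, and in 22RV1 it was at 5.07 with FoxA1 shRNA and 5.33 with control shRNA. The other 2 probes of NOTCH2 were undetected on all 14 arrays.

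NOTCH3, a receptor known chiefly from vascular smooth muscle, was at 8.06, 7.36, 6.51 and 7.03 in shFoxA1, against 6.89, 7.42, 6.84 and 7.04 in shCtrl. The highest value was shFoxA1 replicate 1, whose pair differed by 1.16, and the next 3 pairs by -0.06, -0.33 and -0.01. The mean difference was 0.19 (SE 0.22) over 4 pairs and -0.13 without replicate 1 of both groups. Without shFoxA1 replicate 1 alone it was -0.02. On the numbered arrays alone it was 0.55, whichever way these are paired. NOTCH3 was at 7.22 with FoxA1 siRNA and 7.26 with control siRNA, and in 22RV1 at 7.70 with FoxA1 shRNA and 7.46 with control shRNA. In the replicate 1 pair 14.9% of all genes were at least 2-fold apart. Several marker lists also summed highest on shFoxA1 replicate 1. For markers of PC-3 cells the summed intensity was 793, with 3 of 4 detected, against 232 to 511 and 1 to 3 detected on the other 7 LNCaP shRNA arrays. On shFoxA1 replicate 1 VIM was the brightest of these at 9.01, ANXA1 was at 7.57 and CAV1 at 5.88, while CD44 was undetected. VIM was detected on all LNCaP shRNA arrays. For neuroendocrine markers the sum on shFoxA1 replicate 1 was 598, with 2 of 6 detected, against 172 to 254 and 1 to 3 detected. ENO2 alone made up 455 of the 598, and without it the sum was 143 there and 135 to 166 on the others. A fibroblast list summed to 183 there, with 2 of 5 detected, against 143 to 169.6 and 0 to 2 detected. Their part in the result was not tested.

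The HES and HEY genes encode basic helix-loop-helix repressors. To show what the HES genes could share besides their family, the 250 bases before the annotated start are given for the 3 HES genes, from RefSeq on GRCh38.p14, 5' to 3' on the gene's strand. Capitals mark GTGGGAA, the core of the RBPJ site. HES1 lies on the plus strand at chr3:194135898-194136147, HES4 on the minus strand at chr1:1000098-1000347 and HES6 on the minus strand at chr2:238240039-238240288.
HES1: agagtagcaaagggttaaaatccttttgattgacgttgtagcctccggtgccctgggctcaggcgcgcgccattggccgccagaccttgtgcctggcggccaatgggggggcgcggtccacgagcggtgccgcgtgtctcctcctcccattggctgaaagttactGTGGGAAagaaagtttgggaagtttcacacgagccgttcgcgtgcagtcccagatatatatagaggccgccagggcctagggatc
HES4: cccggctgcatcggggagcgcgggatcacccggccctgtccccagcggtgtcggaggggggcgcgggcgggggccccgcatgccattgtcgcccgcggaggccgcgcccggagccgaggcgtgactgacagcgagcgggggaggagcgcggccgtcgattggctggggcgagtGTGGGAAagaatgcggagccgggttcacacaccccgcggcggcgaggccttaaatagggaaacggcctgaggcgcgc
HES6: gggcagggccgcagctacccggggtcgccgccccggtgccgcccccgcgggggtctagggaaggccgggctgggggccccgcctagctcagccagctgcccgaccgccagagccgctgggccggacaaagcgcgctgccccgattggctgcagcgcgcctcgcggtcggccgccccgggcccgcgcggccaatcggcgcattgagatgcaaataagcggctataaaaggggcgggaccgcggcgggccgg
HES1 and HES4 each hold GTGGGAA on the gene's strand, with its first base 85 and 77 bases before the start, and HES6 holds none on either strand. Of all 35116 promoter windows of this length, 5.43% hold it on either strand. Of the 9 genes with an entry in the table, HEY2 also holds it, on the opposite strand. The forkhead words TGTTTAC (2.98% of all windows) and TGTTTGC (3.23%) and AGAACA, the hexamer of androgen response elements (12.4%), had no match in the 9 windows on either strand. CACNAG, the N box to which HES proteins bind, occurs in 32% of all windows and was found in HES1 and NOTCH3. No match overlapped another. A match describes these letters only, and no match says only that the letters are not in this window.

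HES4, a HES family repressor with no mouse counterpart, was at 9.56 and 9.57 on the numbered shFoxA1 arrays, 9.91 with R1881 and 9.78 hormone-deprived. On the shCtrl arrays it was at 10.41, 10.45, 10.43 and 10.48. All 4 shFoxA1 arrays lay below all 4 shCtrl arrays, as 5.89% of all genes did, and the shCtrl values were tight. The means were 9.71 ± 0.17 in shFoxA1 and 10.44 ± 0.027 in shCtrl (SD, n = 4 each), a difference of -0.73 (SE 0.12), and of -0.69 without replicate 1 of both groups. The pairs differed by -0.86 and -0.88 for the numbered arrays, -0.52 with R1881 and -0.69 hormone-deprived.

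Outside that table, HES4 was at 10.657 with FoxA1 siRNA and 11.004 with control siRNA, and at 11.15 with FoxA1 shRNA and 11.53 with control shRNA in 22RV1. Both pairs were lower with FoxA1 knockdown, at -0.35 and -0.38, each from 1 array against 1. The direction held in all 6 knockdown pairs under each of the 5 other ways of scaling or correcting the values. In PC-3M the array labelled FoxA1 had HES4 at 10.26 and its control at 10.12. Between R1881 and hormone deprivation HES4 differed by 0.13 in shFoxA1 and -0.05 in shCtrl.

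HES6 was at 11.85 and 11.78 on the numbered shFoxA1 arrays, 12.19 with R1881 and 9.11 hormone-deprived, against 11.15, 11.20, 11.33 and 10.45 in shCtrl. In 3 pairs the shFoxA1 array was the higher one, by 0.70, 0.58 and 0.86, whereas the hormone-deprived pair differed by -1.34. The mean difference of 0.20 (SE 0.32) covers both directions, and without the hormone-deprived pair it was 0.71. Without replicate 1 of both groups it was 0.03, and under median scaling -0.01. In the R1881 pair, median scaling gave 0.21, beside a median of -0.50 over all genes. Higher by at least 1.4-fold in those 3 pairs and lower by as much in the hormone-deprived pair were 3 of 11892 genes (0.0252%). The pattern was taken from the values of HES6 itself, so HES6 meets it by construction and nothing is read from the share. The other two, named after their values were seen, were ID3, an inhibitor of helix-loop-helix factors, and KLF6, a zinc finger factor.

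With R1881 against hormone deprivation, HES6 was 3.08 higher in shFoxA1 (8.48-fold) and 0.89 higher in shCtrl (1.85-fold). The first difference came from 12.19 with R1881 and 9.11 hormone-deprived, and the second from 11.33 and 10.45. In shFoxA1 this placed HES6 at rank 3 of 11302 genes, where 2.98% of genes were at least 2-fold apart, and in shCtrl at rank 227 of 11725, where 2.77% were. HES6 was chosen with these comparisons in view, so nothing is read from the ranks. KLK3, the androgen-induced gene for prostate-specific antigen, had the opposite order, with 0.93 in shFoxA1 and 2.2 in shCtrl. Its level was higher in shFoxA1 in both media, at 8.64 against 7.71 in shCtrl with R1881 and 7.71 against 5.52 hormone-deprived. Each difference rests on 1 array against 1, and these comparisons share their 4 arrays with the knockdown pairs.

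**Figure D2:**
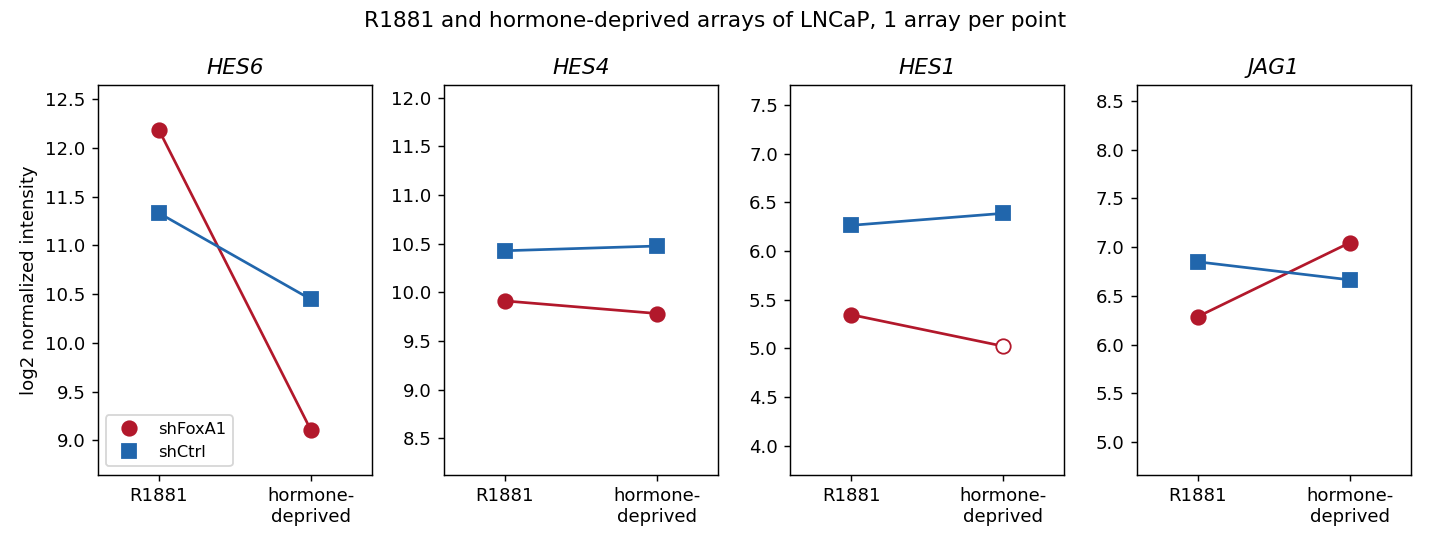
Log2 normalized intensity of HES6, HES4, HES1 and JAG1 on the R1881 (left) and hormone-deprived (right) arrays of LNCaP, 1 array per point, with shFoxA1 as red circles and shCtrl as blue squares; an open symbol was not detected. The HES6 lines cross, at 12.19 and 9.11 in shFoxA1 and 11.33 and 10.45 in shCtrl, and the HES4 lines run nearly flat.

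In the siRNA pair HES6 was at 11.81 with FoxA1 siRNA and 11.54 with control siRNA, and in 22RV1 at 7.62 with FoxA1 shRNA and 8.16 with control shRNA. The siRNA pair thus differed by 0.26 and the 22RV1 pair by -0.54. Under median scaling the 22RV1 difference was -1.14, where the median of all genes was -0.45.

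HES1, the main Notch target in many tissues, was at 6.62, 6.31 and 5.35 on the numbered and R1881 arrays of shFoxA1, and at 5.02 and undetected on the hormone-deprived one. The shCtrl arrays were at 6.10, 6.31, 6.26 and 6.39. The numbered pairs differed by 0.52 and -0.002, while the R1881 pair differed by -0.92 and the hormone-deprived shFoxA1 array was at least 2.37-fold lower. The mean difference was -0.44 (SE 0.27), and -0.76 without replicate 1 of both groups. On the numbered arrays alone it was 0.26, so its direction depends on the pairs taken. In the siRNA pair HES1 was at 6.06 with FoxA1 siRNA and 5.29 with control siRNA, 0.77 higher, and in 22RV1 at 6.44 with FoxA1 shRNA and 6.63 with control shRNA.

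HEY1, a HES-related repressor of endothelium and heart, was at 6.93 and 5.84 on the numbered shFoxA1 arrays, 5.81 with R1881 and 5.77 hormone-deprived. In shCtrl it was at 4.75 and 4.65, both undetected, and at 5.78 with R1881 and 5.35 hormone-deprived. The highest value was shFoxA1 replicate 1, and the groups overlapped through the shCtrl array with R1881. Against the detection limit, HEY1 was at least 3.02-fold higher in shFoxA1 in the pair of replicate 1 and at least 1.46-fold higher in that of replicate 2. Over both numbered pairs it was at least 2.10-fold higher. The other pairs differed by 0.03 with R1881 and 0.42 hormone-deprived. The mean difference was 0.95 (SE 0.32) and was 0.54 without replicate 1 of both groups. That pair held the array on which the PC-3 markers summed to 793, with VIM the brightest and CD44 undetected, and ENO2 stood at 455. Their part in the result was not tested.

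HEY1 was also the higher one with FoxA1 siRNA, at 6.79 against 6.41 with control siRNA, and with FoxA1 shRNA in 22RV1, at 6.43 against 6.13 with control shRNA. Together with PC-3M it was higher on the array labelled FoxA1 in 7 of 7 pairs, as 5.17% of genes were. The direction did not hold throughout. The R1881 pair turned to -0.39 under median scaling and was also below 0 under cyclic loess, and the 22RV1 pair turned to -0.23 under median scaling, 0.22 above the median of all genes there. A second HEY1 probe, near background in LNCaP, gave 0.22 (SE 0.15).

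HEY2, a HEY family repressor of heart and blood vessels, was undetected on all 8 LNCaP shRNA arrays and on both siRNA arrays. In 22RV1 it was at 4.36 and undetected with FoxA1 shRNA, and at 4.53 with control shRNA, just past the detection limit of 4.50.

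**Figure D3:**
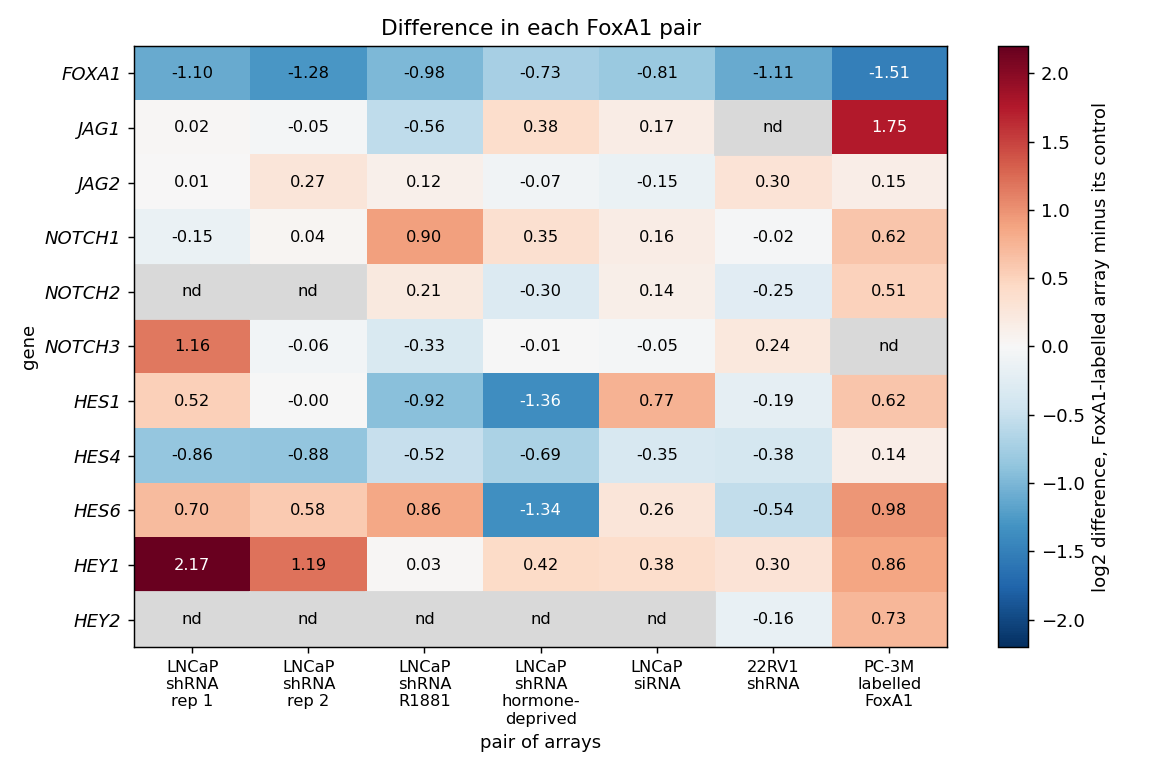
Log2 difference of FOXA1 and the 10 genes in each of 7 pairs, the array labelled FoxA1 minus its control, red for higher and blue for lower on the labelled array; nd marks pairs in which neither array detected the gene. The HES4 row is blue in the 6 knockdown pairs (-0.88 to -0.35) and 0.14 in PC-3M, and the PC-3M column is positive for the 9 detected genes.

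Over the 10 genes, no gene was 2-fold apart in the siRNA pair, where 3.54% of all genes were, and none in the 22RV1 pair, where 3.29% were. With median scaling 1 of them, HES6, passed 2-fold in 22RV1, and also in the androgen comparison of shCtrl. In the R1881 knockdown pair, median scaling took 3 genes past 2-fold in place of 0, HES1 at -1.44, HES4 at -1.18 and JAG1 at -1.11, beside the all-gene median of -0.50, and cyclic loess took HES1 to -1.01. In the 4 LNCaP shRNA pairs, the genes past 2-fold as measured were HEY1 and NOTCH3 in replicate 1, HEY1 in replicate 2 (5.93% of all genes), none with R1881 (3.74%), and HES1 and HES6 in the hormone-deprived pair (1.8%). HEY1 in replicate 2 rests on an undetected control, with a bound of 1.46-fold, and was at 0.63 with a larger offset of 50 in the background correction. With that offset NOTCH3 in replicate 1 and HES1 in the hormone-deprived pair were under 2-fold too. No ligand or receptor was 2-fold apart between R1881 and hormone deprivation. JAG1 differed by -0.76 in shFoxA1 and 0.19 in shCtrl, NOTCH1 by -0.09 and -0.64, and NOTCH3 by -0.53 and -0.20.

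On the PC-3M array labelled FoxA1, values were above the control for 9 of 9 detected genes, by 0.14 to 1.75, with a median of 0.62. Over all genes 51% were higher, with a median of 0.009. JAG1 was at 6.71 on the array labelled FoxA1 and at 4.96 on the control, just past the control's detection limit of 4.95, a 3.35-fold difference and the 1 of these genes past 2-fold, where 2.48% of all genes were. HES6 followed with 7.25 against 6.27, HEY1 with 11.05 against 10.18, and HEY2 with 6.50 against 5.77. The second HEY1 probe was at 8.44 on the array labelled FoxA1 and 7.43 on the control.

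The remaining PC-3M differences were smaller. HES1 was at 6.93 on the array labelled FoxA1 and 6.31 on its control, NOTCH1 at 8.01 and 7.39, and NOTCH2 at 6.05 and 5.54. JAG2 was at 7.71 and 7.56, and HES4 at 10.26 and 10.12. NOTCH3 was undetected on both arrays. All 9 differences stayed above 0 under each of the 5 other ways of processing, but there is 1 array per group and no replicate check. The luminal markers checked in these lines were largely missing from PC-3M, with 2 of 6 detected against 5 to 6 on the other 12 arrays, and KLK3 undetected. Other markers differed between the PC-3M arrays. The PC-3 markers summed to 8734 on the array labelled FoxA1 and 12032 on its control, with 4 of 4 detected on each. Of 5 fibroblast markers, 3 were detected on the array labelled FoxA1 and 1 on its control, with sums of 625 and 907. DCN was at 8.46 on the array labelled FoxA1 and 4.46, undetected, on its control, and COL1A2 at 7.62 and 9.67. Their part in the 9 differences was not tested.

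Levels also set the lines apart. HEY1 was at 11.05 and 10.18 in PC-3M, where the highest LNCaP or 22RV1 value was 6.93, with each table normalized by itself. In the authors' deposited matrix, in which the R1881, hormone-deprived and PC-3M arrays share the same sorted values, HEY1 had an intensity of 1670 and 873.7 in PC-3M and of 20.8 to 37 on those 4 LNCaP arrays. The other LNCaP arrays, normalized in other sets of that matrix, held -3 to 116.5. HEY2 was likewise clearly detected in PC-3M and not in LNCaP, and NOTCH3 had the reverse pattern.

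Between 22RV1 and LNCaP control cells, which share a table, 31.4% of all genes were at least 2-fold apart. HES6 was at 8.16 in 22RV1 with control shRNA and 11.54 in LNCaP with control siRNA, 10.4-fold lower in 22RV1. JAG1 was undetected in 22RV1 and at least 4.30-fold lower there. JAG2 was lower in 22RV1 as well, at 7.94 against 9.02 in LNCaP, whereas HES1 was higher, at 6.63 against 5.29. NOTCH1 differed by 0.76, NOTCH3 by 0.20 and NOTCH2 by -0.02. Construct type and line differ together here and cannot be told apart. 22RV1 also carried the highest neuroendocrine marker sums, 1143 with FoxA1 shRNA and 1168 with control shRNA, of which ENO2 made up 832 and 816. Their part was not tested.

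**Figure D4:**
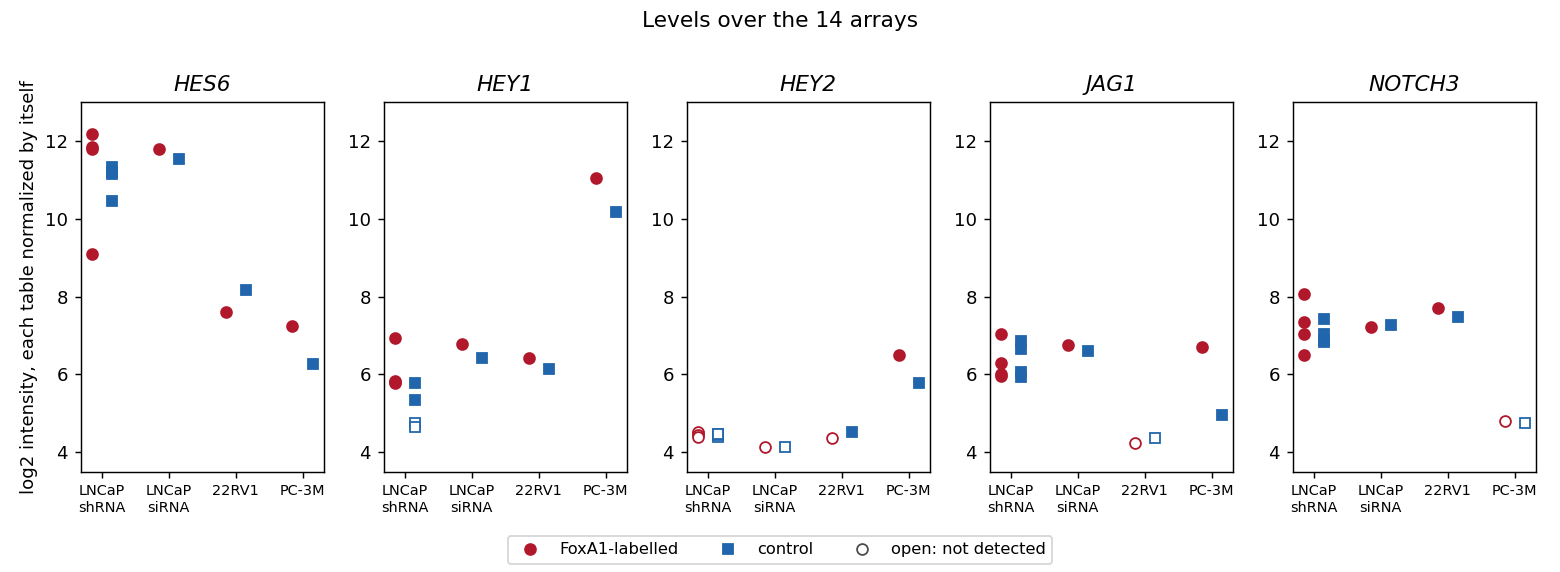
Log2 intensity of HES6, HEY1, HEY2, JAG1 and NOTCH3 on all 14 arrays by line and construct, arrays labelled FoxA1 as red circles and controls as blue squares, open symbols not detected; each of the 3 tables was normalized by itself. HES6 is high in LNCaP apart from the hormone-deprived shFoxA1 array at 9.11, and HEY1 is highest in PC-3M, at 11.05 and 10.18.

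The rest of the pathway was read from a list of 71 other Notch genes, written as ligands, receptors, cleavage factors, glycosyltransferases, endocytosis and turnover factors, coactivators, corepressors, further HES and HEY genes and other targets. Of these, 66 had a named probe and 47 passed the detection filter. In the fit, 2 rose and 1 fell, against 3.99% and 3.53% of all genes, and the median difference was 0.10, against -0.01 over all genes. The ligands had 1 gene higher and 1 lower of 5 tested, and the corepressors 1 higher of 10. None passed among 7 cleavage factors, 4 glycosyltransferases, 10 endocytosis factors and 8 coactivators. On the receptor list NOTCH4 was not tested, and NOTCH2NLA, the 1 gene tested, did not pass.

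DLL3, a ligand that works inside the cell to hold Notch back, was at 7.82, 8.01, 7.95 and 7.62 in shFoxA1, against 8.78, 8.81, 8.29 and 8.23 in shCtrl. All 4 shFoxA1 arrays lay below all 4 shCtrl arrays, as for 5.89% of all genes. DLL3 fell by 0.68 (SE 0.14, n = 4 against 4, limma adjusted p = 0.0272), and a second DLL3 probe gave -0.28 (adjusted p = 0.373). Its difference was -0.46 in the siRNA pair, -0.58 in 22RV1 and 0.02 in PC-3M.

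DNER, a Notch ligand known from neurons, was at 7.12, 6.64, 5.92 and 5.81 in shFoxA1, against 4.66, 5.37, 4.49 and 4.45 in shCtrl, where 1 of the 4 arrays detected it. DNER passed the detection filter only through the shFoxA1 arrays, where it was higher, so its test is not independent of that difference. It rose by 1.63 (SE 0.20, limma adjusted p = 0.0064), a size that depends on 3 arrays under the detection limit and was 0.95 with an offset of 50 and 1.98 without background correction. It was 0.85 higher in the siRNA pair, and the 22RV1 pair differed by -0.03. TLE1, a Groucho-type corepressor that HES proteins recruit, was at 9.80, 9.50, 8.83 and 8.48 in shFoxA1, against 7.28, 7.87, 7.05 and 7.93 in shCtrl. It rose by 1.62 (SE 0.26, limma adjusted p = 0.0162), and was 1.90 higher in the siRNA pair and 0.28 in 22RV1.

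These 3 calls varied in firmness. DNER kept its call in each setting that left out arrays, but it entered the test through the shFoxA1 arrays alone. It was not tested where detection on all 8 arrays was required, a setting in which TLE1 and DLL3 kept theirs. TLE1 lost it without shCtrl replicate 2 (limma adjusted p = 0.0501), without shFoxA1 replicate 2 (0.0526) and without the R1881 pair (0.0748). DLL3 lost its call without shCtrl replicate 1 or 2 (0.0816 and 0.0832), shFoxA1 replicate 2 (0.0744), the R1881 pair (0.072), the hormone-deprived pair (0.0543) or replicate 1 of both groups (0.0705). All 3 lost it without the detection filter or the medium term, and DLL3 also without background correction (0.0509) and on the numbered or the R1881 and hormone-deprived arrays alone (0.0662 and 0.165).

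As a description of which genes ran most alike over the 8 LNCaP shRNA arrays, HES4 had its highest Pearson correlations with GLDC (0.99), PRPS1 (0.975) and ARG2 (0.973). HEY1 had them with MAP3K1 (0.973), EFNB2 (0.971) and ZNF425 (0.969), and HES1 with PRPSAP2 (0.947), TBX1 (0.923) and CBFB (0.913). GLDC is the glycine decarboxylase, PRPS1 a phosphoribosyl pyrophosphate synthetase, ARG2 a mitochondrial arginase, and EFNB2 the ligand ephrin-B2. The 8 points share knockdown and medium, and these genes were picked from 11892 for their likeness.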

How the data were processed

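Values of 14 bead arrays came from GenomeStudio, per the submitters' processing notes, with its version not given in the sources used here. The labels' protocols name 1 core facility for the 8 LNCaP shRNA arrays and a different one for the other 6. The deposited tables of the 8 LNCaP shRNA and 2 PC-3M arrays held background-subtracted intensity and a detection p-value per probe, per the file headers. For the 4 arrays of siRNA and 22RV1 the deposited intensity was raw, and columns headed as p-values held whole numbers and were not used. All columns of samples were matched (0 left over).

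Each table was processed in R 4.3.3 with limma 3.58.1: normexp with an offset of 16, quantile normalization and log2. Detection was a detection p below 0.05, or, in the siRNA and 22RV1 table, an intensity above the mode by 1.645 SD. That limit was set with the values in view, and it matched the detection p-values, where they exist, for 91.4 to 99.1% of probes. A gene took its probe with the highest mean. Of 47323 probes, 30113 carried 1 symbol, 8 several, and the others were not used. A bound sets the dimmer arrays at their detection limit.

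For the 8 LNCaP shRNA arrays, lmFit and eBayes took knockdown and medium label as terms over probes detected on at least 2 arrays, two-sided, with Benjamini-Hochberg adjustment over all of them, and were tested on simulated data. Residual degrees of freedom were 4. They cover the spread between the numbered arrays of a group and the change of the knockdown difference between medium labels. The label term also holds the difference in array set between the numbered arrays and the others. Other comparisons had 1 array per group and no test. Same-numbered deviations correlated at -0.173 and so do not pair the arrays. The 10 genes, the pathway and marker lists and the tests were chosen with earlier results of these data known. Named genes were these 10, FOXA1, pathway genes past the test, and the 3 genes most alike to each of the 3 genes with the largest LNCaP shRNA differences. KLK3, marker genes, and ID3 and KLF6 were named outside this rule, after their values were seen. Sequences came from RefSeq. The number of arrays limits the precision.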

Additional observations from a re-analysis of the deposited data

Results flagged for a closer look

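Of 22 sets of 4 arrays checked for a far array, 2 had one. The arrays of a set differ in medium label and the genes were chosen on these arrays, so this count is a description only. HES6 on the hormone-deprived shFoxA1 array, at 9.11, lay apart from the other 3 shFoxA1 arrays (11.78 to 12.19), with a gap of 0.869 of the whole range. HEY1 on shFoxA1 replicate 1, at 6.93, lay apart from the other 3 (5.77 to 5.84), with a gap of 0.942 of the range. HES4 ran in opposite directions in PC-3M and LNCaP: the difference between the array labelled FoxA1 and its control was 0.14 in PC-3M and below 0 in each of the 5 LNCaP pairs, and the PC-3M value minus the LNCaP mean was 0.802. FOXA1 was lower in all of these pairs. HES6 ran in opposite directions within LNCaP: the hormone-deprived pair (-1.34) minus the mean of the other 3 shRNA pairs was -2.06. Neither of the last differences was tested.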

How the results depend on the processing

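Of 88 differences of the 10 genes, 67 kept their direction under every setting, and of those at least 2-fold none turned (0). The count of genes past the limma threshold, 894, moved to 441 without background correction, 1493 with median scaling, 470 from the authors' matrix, 92 without the detection filter, 38 without the medium term and 58 without the R1881 pair. It lay between 167 and 683 when 1 numbered array was left out. On settings added after seeing the data it was 587 without replicate 1 of both groups and 291 on the numbered arrays alone. With the replicate block it was 560, and with crossed numbers 1135. The 3 pathway genes became 0 without the filter (13 at an unadjusted p below 0.05) and 0 without the medium term (3 at an unadjusted p below 0.05), both in limma, the only tool run, and 1 without the R1881 pair, and lay between 1 and 3 when 1 numbered array was left out. The replicate block kept the count of pathway genes at 3. With median scaling, 1 of the 10 genes in place of 0 was 2-fold apart in 22RV1, 1 in place of 0 in the androgen comparison of shCtrl, and 3 in place of 0 in the R1881 knockdown pair, where cyclic loess gave 1. The cause was not tested. Genes near background (NOTCH2, HEY1 and HES1 in LNCaP, JAG1 in the PC-3M control) have differences that the offset in the background correction compresses.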
